A study of Mus musculus and Canis lupus familiaris and Equus caballus with 9 samples.

Results

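In dog ML2 cells, a myelomonocytic leukaemia cell line, 315 of 2273 NRSF peaks (13.9%) had another peak of the same list close by. A peak counted as having a close neighbour when its midpoint lay within 10 kb of the midpoint of another peak. This rule used the peak positions themselves, so the counts and spacings are a description and carry no test. The 315 peaks formed 120 groups, each a chain in which every peak lay within 10 kb of the next. Of these groups, 92 were pairs, 22 held 3 or 4 peaks and 6 held 6 to 14 peaks, and there was no group of 5. The 6 largest, called long runs below, lay on chromosomes 6, 13, 26 and 27 and held 61 of the 315 peaks (19.4%).

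NRSF (also named REST) is a zinc-finger protein that recognises a DNA element called RE1 or NRSE and recruits corepressor complexes through both of its ends. It is best known for holding down neuronal genes in cells that are not neurons, such as blood cells and fibroblasts. Some of its target genes are known to carry more than 1 such element. The series title sets the data in a study of how the form of this element changed in evolution.

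The dog peaks came from ML2 cells at passages 13 to 15, with 2 samples immunoprecipitated with an NRSF monoclonal antibody and 1 sample of input DNA taken without antibody. Fixation was with 1% formaldehyde, and library fragments between 200 and 300 bp were kept. Mouse RAW264.7 macrophages (BALB/c, passages 13 to 15) and horse E.Derm (NBL-6) skin fibroblasts (quarterhorse, passage 10) were each measured with the same numbers of samples, and a human list belongs to none of the 9 samples. All 3 are established cell lines, and no group carried a further treatment. A single peak list stands for both immunoprecipitated samples of a species, so no value per replicate and no replicate error can be given. Each peak was listed by chromosome, start and end, 400 bp wide, without a height or score, and the read depth is unknown. Dog positions are in CanFam3.1, printed as deposited. Whether they count from 0 or 1 is not stated, so each is known to within 1 base. No list made from the dog input was used, so whether input DNA alone piles up at these places was not tested.

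The 315 peaks were 13.9% of the list with an exact (Clopper-Pearson) 95% interval of 12.5 to 15.3%. The interval covers counting error only, and because it treats peaks as independent it is narrower than one that allows for their grouping. Without the 61 peaks of the long runs, 254 of 2212 peaks had a neighbour (11.5%, interval 10.2 to 12.9%). The other 1958 peaks had their nearest neighbour at a median of 266 kb and at most 13.2 Mb. Of them, 138 (7.05%) had it between 10 and 20 kb. At the limit of the rule, the widest spacings counted were 9775 bp on chromosome 3 and 9945 bp on chromosome 23. The narrowest not counted were 10090, 10140 and 10300 bp, all on chromosome 2, and no gap in the distances set the limit apart.

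The 6 long runs spanned 5.15 to 31.4 kb, and the nearest peak outside a run lay 199 to 981 kb away. For the 92 pairs that distance had a median of 115 kb and a range of 10.3 to 3524 kb. For the 18 groups of 3 it had a median of 27.6 kb and a range of 10.1 to 2983 kb, so some smaller groups were as isolated as the runs or more so. Within 1 Mb of the centre of a run, 4 of the 6 had 1 other peak each, and the 2 runs on chromosome 13 had 6 and 7, all of them peaks of the other run. Outside the long runs, no more than 1 peak lay within 1 Mb of any of the 6.

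**Figure D1:**
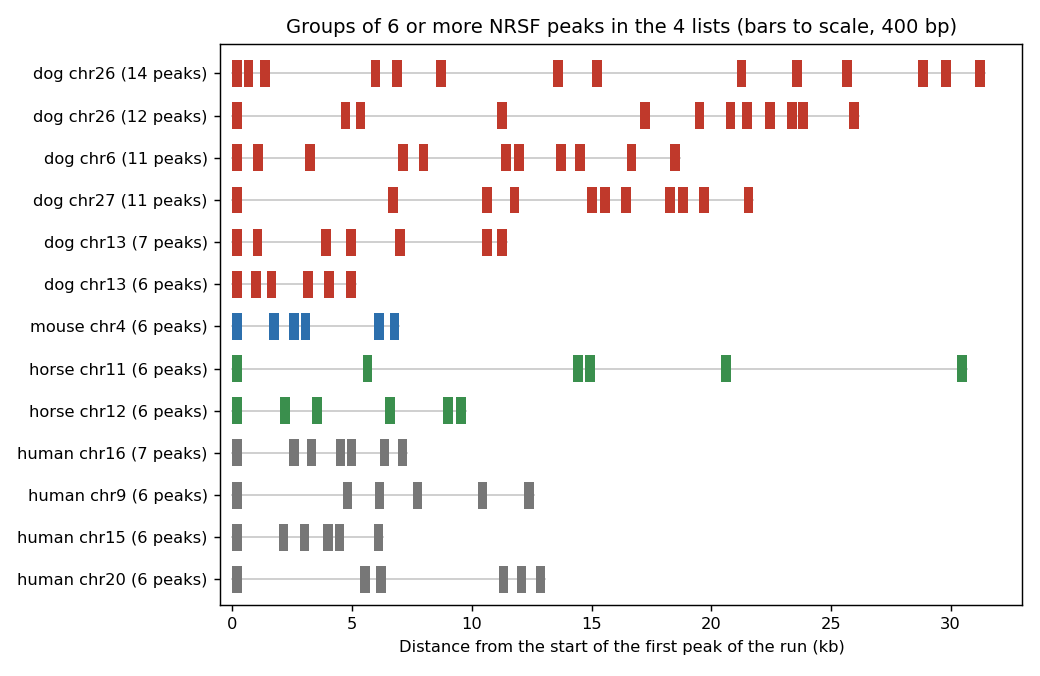
Each row is a group of 6 or more NRSF peaks, drawn to scale from the start of its first peak (x axis, kb); bars are the 400 bp peaks, in red for dog, blue for mouse, green for horse and grey for human. The dog list has 6 such groups with up to 14 peaks, against 1, 2 and 4 groups with at most 7 peaks in the mouse, horse and human lists. The limit of 6 was set after the data were seen.

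The run with the most peaks held 14 on chromosome 26, from 31268295 to 31299725 (31.4 kb). Its spacings were, in order, 465, 695, 4610, 910, 1840, 4890, 1625, 6035, 2320, 2090, 3170, 960 and 1420 bp. They ranged from 465 to 6035 bp with a median of 1840 bp, and the peaks covered 17.8% of the span. Close spacings occurred at both ends of the run, with wider ones of over 4 kb between them. The nearest peak outside lay 817 kb before it. Among the 91 possible pairs of its peaks, the commonest distance, matched within 25 bp, was 7640 to 7660 bp. It was picked by that count and recurred between 3 pairs, namely peaks 4 and 7, 7 and 9, and 10 and 14. In the other long runs the commonest distance joined from 1 pair (both runs on chromosome 13) to 5 pairs (chromosome 27). How often unrelated peaks match in this way was not tested.

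The other run on chromosome 26 held 12 peaks from 28858565 to 28884735 (26.2 kb). Its spacings were 4520, 625, 5925, 5970, 2275, 1295, 675, 975, 910, 460, 2140 bp in order, with a median of 1295 bp. The 3 spacings over 4 kb lay among its first 4 spacings, and towards the end 4 spacings in a row stayed under 1 kb. This run had the nearest outside peak of all 6 long runs, 199 kb after its last peak.

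The run on chromosome 27 held 11 peaks from 13144025 to 13165775 (21.8 kb) and had a repeating spacing. In order the spacings were 6500, 3930, 1150, 3250, 530, 890, 1830, 530, 890 and 1850 bp. The block of 530, 890 and 1830 bp was followed directly by one of 530, 890 and 1850 bp, so that 3 spacings in a row matched within 20 bp. Peaks 5, 8 and 11 consequently lay 3250 and 3270 bp apart. The spacing before the blocks, between peaks 4 and 5, was also 3250 bp. Of the 55 possible pairs of peaks in the run, 5 stood at 3250 to 3270 bp, its commonest distance, picked by that count. The pairs 5 and 8, 6 and 9, 7 and 10, and 8 and 11 restate the matched blocks. Only the pair 4 and 5 adds to them. The nearest peak outside was 981 kb away, the farthest of the 6 long runs.

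The run on chromosome 6 also held 11 peaks, from 43063350 to 43082025 (18.7 kb). Its spacings were 870, 2165, 3890, 860, 3450, 540, 1740, 800, 2155 and 1805 bp, with a median of 1772.5 bp. The spacings of 870 and 2165 bp at its start came back 13515 bp further on as 800 and 2155 bp, a match within 70 bp. No spacing in this run exceeded 3890 bp.

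The runs on chromosome 13 lay 432 kb apart with no peak between them. The first held 7 peaks from 40250745 to 40262205 (11.5 kb), spaced by 850, 2860, 1050, 2040, 3635 and 625 bp. The second held 6 peaks from 40693995 to 40699145 (5.15 kb), spaced by 790, 640, 1525, 870 and 925 bp. It was the shortest and densest long run, with 46.6% of its span covered by peaks. Neither run showed a repeated block of spacings.

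A repeated block was searched in every group of 5 or more peaks, as at least 2 spacings in a row that came back later in the same group. Within 10, 25 or 50 bp, 1 of 6 dog groups had such a block, the run on chromosome 27. Within 100 bp, 2 of 6 had one, the runs on chromosomes 27 and 6. None of the 2 mouse, 4 horse and 7 human groups of that size had one at any of the 4 tolerances. These groups hold at most 7 peaks and so offer fewer chances for a match than the dog runs. How often unrelated spacings match within these tolerances was not tested.

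Inside the long runs the spacing was shorter than in smaller groups. Its median was 1525 bp over 55 spacings, compared with 3225 bp over 48 spacings in groups of 3 or 4 and 3162.5 bp over 92 pairs. Spacings of at most 1 kb made up 41.8% in the long runs (23 of 55), against 20.8% in groups of 3 or 4 and 21.7% in pairs. Spacings over 5 kb made up 7.27% (4 of 55), against 35.4% in groups of 3 or 4 and 31.5% in pairs. The values of groups of 3 or 4 and of pairs were close to each other, and those of the long runs stood apart from both. The same spacings sorted the peaks into these classes, so no test was made.

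**Figure D2:**
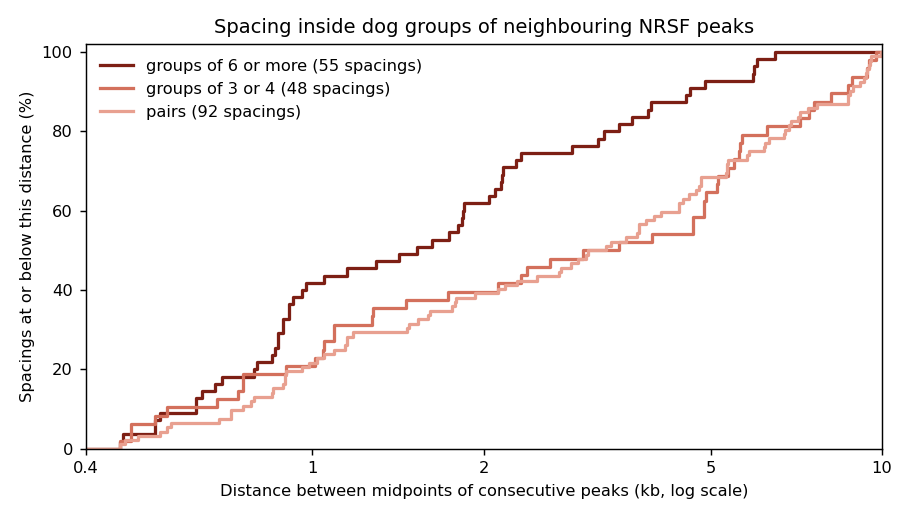
The curves give the share of spacings (y axis, %) at or below a distance between midpoints (x axis, kb, log scale) for the 55 spacings in dog groups of 6 or more, the 48 in groups of 3 or 4 and the 92 of pairs. The curve of the long runs lies above the others from 0.79 kb on, with 41.8% of its spacings at most 1 kb, while the other curves overlap.

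The 92 pairs spread over the whole range that the rule allows. Their spacing ran from 460 to 9945 bp, and the middle of the distribution lay between 1127.5 and 5922.5 bp (quartiles). The closest pair lay on chromosome 37 from 5759275 to 5760135, 460 bp apart with 60 bp between the peak edges. The next were pairs on chromosome 22 (61436965 to 61437835, 470 bp), chromosome 15 (39589895 to 39590790, 495 bp), chromosome 21 (27182565 to 27183505, 540 bp) and chromosome 2 (33586405 to 33587360, 555 bp). In all 5 the edges were at most 155 bp apart.

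Such tight spacing was a minority. Over all 195 spacings within groups, 23 (11.8%) left at most 300 bp between the peak edges, which is the upper end of the selected fragment length. The share was 18.2% in the long runs (10 of 55) and 7.61% in pairs (7 of 92). At the other end, the widest pairs lay on chromosome 23 (8506985 to 8517330, 9945 bp), chromosome 38 (17358895 to 17368875, 9580 bp), chromosome 12 (44160685 to 44170625, 9540 bp), chromosome 2 (77501675 to 77511545, 9470 bp) and chromosome 1 (116707635 to 116717445, 9410 bp).

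Short distances were nonetheless the most frequent per unit of length. Among the 2234 distances between consecutive dog peaks, 53 fell at or under 1 kb and 36 between 1 and 2 kb. The number per kb of distance was 18.7 between 2 and 5 kb, 10.0 between 5 and 10 kb, 8.1 between 10 and 20 kb and 4.1 between 20 and 50 kb. The decline went on through the 10 kb limit without a step. Since peaks in the list do not overlap, no distance below the width of 400 bp could occur, and the shortest seen was 460 bp.

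The 4 groups of 4 peaks lay on chromosomes 3, 9, 16 and X. The group on chromosome 9, from 19860265 to 19876035, was evenly spaced, with 4865, 5630 and 4875 bp between its peaks. A pair spaced by 4765 bp lay 12980 bp before it, so that 6 peaks fell within 33.5 kb. The group on chromosome 3, from 71064875 to 71084185, was the widest of the 4 with spacings of 5675, 9775 and 3460 bp.

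The group of 4 on chromosome X, from 105567275 to 105574845, was the tightest, with 1460, 4665 and 1045 bp. A group of 3 followed it after 22.4 kb (105596825 to 105598755, spacings of 480 and 1050 bp), and a pair further on. All 9 of the grouped peaks of chromosome X lay in this stretch of 224 kb, which held no other peak, and the 41 other peaks of the chromosome had no close neighbour.

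The group of 4 on chromosome 16, from 59338450 to 59348275 with 755, 6290 and 2380 bp, belonged to the stretch with the most grouped peaks outside the long runs. This stretch ran from 59076655 to 59528775 (452 kb) and held 19 peaks, of which 14 formed 5 groups and 5 had no close neighbour. Its groups of 3 ran from 59367955 to 59373285 (2320 and 2610 bp) and from 59526635 to 59528775 (460 and 1280 bp). The last of these also held the last listed peak of the chromosome.

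Chromosome 16 had 3 further groups of 3. They lay from 13911110 to 13913995 (755 and 1730 bp), from 40052855 to 40056055 (2120 and 680 bp) and from 54935785 to 54946770 (1090 and 9495 bp). The tightest group of 3 in the list was on chromosome 26, from 26017645 to 26019425, with spacings of 900 and 480 bp and 67.4% of its span covered by peaks. The widest was on chromosome 6, from 26767245 to 26785920, with 9410 and 8865 bp and 6.43% covered.

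The other groups of 3 fell between these extremes. Chromosome 1 had one from 13805 to 16305 (1090 and 1010 bp) and one from 108558885 to 108567875 (4650 and 3940 bp). Chromosome 7 had 3, from 9299205 to 9311915 (7170 and 5140 bp), from 23720995 to 23729535 (555 and 7585 bp) and from 40794575 to 40808015 (4910 and 8130 bp). In the group from 23720995 a close pair was joined by a peak much farther away, while the spacings of both groups on chromosome 1 were nearly even.

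The remaining 5 were on chromosomes 2, 8, 11, 13 and 18. They ran from 35980305 to 35993645 on chromosome 2 (7450 and 5490 bp), from 13418415 to 13432695 on chromosome 8 (5160 and 8720 bp) and from 40816685 to 40820605 on chromosome 11 (2990 and 530 bp). On chromosome 13 the group ran from 21935 to 28435 (740 and 5360 bp) and on chromosome 18 from 25254040 to 25261315 (5600 and 1275 bp). The group on chromosome 2 had a peak without a close neighbour 10090 bp before it, just outside the reach.

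Some groups lay near one another, though most stood alone. Linked over distances of up to 500 kb, 43 of the 120 groups fell into 18 stretches with more than 1 group, which held 109 of the 315 peaks (34.6%), and 77 groups stood alone. The 1958 peaks without a close neighbour had their nearest peak at a median of 266 kb, also within that distance. Whether groups linked more often than other peaks was not tested. The stretch on chromosome 2 from 35911425 to 36318795 held 4 groups, with sizes of 2, 2, 3 and 2, and 3 other peaks. On chromosome 26, 3 pairs lay between 25048165 and 25411445. The 18 stretches were 20.1 to 452 kb wide, and 1 of them was made up of the runs of chromosome 13.

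The surroundings of grouped peaks differed somewhat from those of lone peaks. Leaving out the group itself, the 92 pairs had a median of 3 other peaks within 1 Mb, and the 22 groups of 3 or 4 a median of 5. The 6 long runs had a median of 1, with values from 1 to 7. The 1958 peaks without a close neighbour had a median of 2. No other peak lay within 1 Mb of 6 of the 92 pairs (6.52%), compared with 307 of the 1958 lone peaks (15.7%). Pairs and groups of 3 or 4 thus had more peaks around them at the median than lone peaks had, and the long runs had fewer. The positions that give these numbers also chose the groups, so no test was made.

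By chromosome, grouped peaks were unevenly spread. They occurred on 32 of the 39 chromosomes with peaks, and 18 of these had pairs only. None was found on chromosomes 10, 19, 28, 32, 33, 35 and 36. With 72 peaks on chromosome 10, 48 on chromosome 28 and 27 on chromosome 19, the exact 95% intervals reached up to 4.99, 7.4 and 12.8%, below the 13.9% of the whole list. The other 4 had 12 to 16 peaks each, and their intervals took in that share. Chromosomes 5, 17 and 20 had grouped peaks, but their intervals also ended below it, at 10.0, 10.5 and 10.5%. The intervals treat peaks as independent and 39 chromosomes were looked at, so they are no test.

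Chromosome 26 had the most grouped peaks, 43 of its 103 (41.7%, 95% interval 32.1 to 51.9%). It held 13.7% of all grouped peaks but 4.53% of all peaks. The long runs accounted for 26 of the 43, and without them 17 of 77 peaks had a neighbour (22.1%). Counted as groups, chromosome 26 held 10 of 120 (8.33%).

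Chromosome 16 had the highest share, 35 of 72 peaks (48.6%, 95% interval 36.7 to 60.7%), without any long run. Its peaks formed 8 pairs, 5 groups of 3 and 1 of 4. Without the bin from 59 to 60 Mb, 21 of its other 53 peaks still had a neighbour (39.6%). Chromosomes 16 and 26 were the only ones whose interval stayed above 20%. With their long runs counted, the intervals of chromosomes 6, 13 and 27 also stayed above the 13.9% of the whole list. Their lower limits were 14.8, 14.8 and 15.3%.

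On the other chromosomes with a long run, the run made up most of the grouped peaks or about as many as the rest. Chromosome 13 had 16 of 65 peaks in groups (24.6%), and 3 of 52 (5.77%) without its runs. Chromosome 27 had 13 of 48 (27.1%), and 2 of 37 without its run (5.41%). Chromosome 6 had 24 of 108 (22.2%), and 13 of 97 (13.4%) without its run. The 5 chromosomes with the most grouped peaks, namely 26, 16, 6, 9 and 2, held 44.1% of them and 21.8% of all peaks; they were picked by that count.

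**Figure D3:**
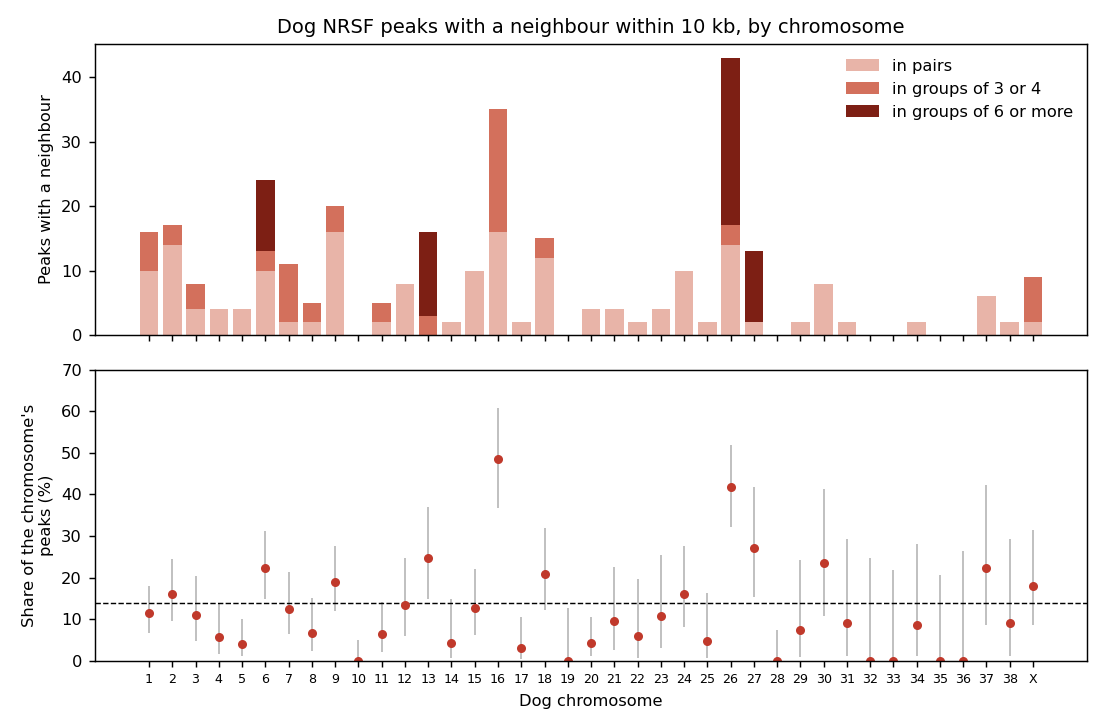
Upper panel: number of dog peaks with a neighbour within 10 kb on each chromosome, stacked by the size of their group. Lower panel: the share of the chromosome's peaks that this makes (%), with exact 95% intervals and a dashed line at the 13.9% of the whole list; chromosome 26 leads the counts with 43 peaks and chromosome 16 the shares with 48.6%.

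The first 100 kb of chromosome coordinates held 17 dog peaks on 9 chromosomes, and 10 of the 17 had a close neighbour. These 10 were all 5 peaks there on chromosome 1, all 3 on chromosome 13 and both on chromosome 16. They formed a group of 3 and a pair on chromosome 1, a group of 3 on chromosome 13 and a pair on chromosome 16. The other 7 peaks were on 6 chromosomes. The window held 3.17% of all grouped peaks and 0.358% of the others, with each peak of a group counted separately. The first listed peak was in a group on 3 of the 39 chromosomes (1, 13 and 16) and the last listed peak on 4 of 39 (6, 16, 22 and 26). A first or last listed peak can have a neighbour only on its inner side, so these counts cannot be set against the 13.9% of the whole list. They do not answer for the first 100 kb, and neither was tested.

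Bins of 1 Mb with 10 or more peaks showed 2 kinds of density. Of the 8 such bins, the 5 with long runs, on chromosomes 6, 13, 26 and 27, held 61 peaks and every one belonged to a run. The 3 others, on chromosome 2 (35 to 36 and 36 to 37 Mb) and chromosome 16 (59 to 60 Mb), held 12, 10 and 19 peaks, of which 7, 2 and 14 had a close neighbour. Together the bins held 84 of the grouped peaks (26.7%), and 231 lay outside them. Among the peaks outside the bins, 10.6% had a close neighbour, against 13.9% of the whole list. The bins were picked for holding many peaks, which by itself favours close neighbours, so no test was made.

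The dog list was set beside the lists of the other species for the number of grouped peaks and the size of the groups. The share of peaks with a neighbour was 13.9% in dog, 10.7% in mouse, 16.8% in horse and 29.6% in human. Of these grouped peaks, 41.6% were in groups of 3 or more in dog, 20.2% in mouse, 27.5% in horse and 35.9% in human. In dog, 61 of the 131 peaks in such groups came from the 6 long runs. Without those runs, 70 of 254 grouped dog peaks were in groups of 3 or more. Groups of 6 or more held 19.4% in dog, 2.37% in mouse, 3.27% in horse and 1.61% in human. The limit of 6 was set after the data were seen and leaves out groups of 5. The dog list had none of these, while mouse had 1, horse 2 and human 3 (5, 10 and 15 peaks). The largest group had 14 peaks in dog, 6 in mouse, 6 in horse and 7 in human, although the human list holds 5260 peaks. These differences were not tested, because each species has 1 list and neither depth nor peak threshold can be set equal.

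**Figure D4:**
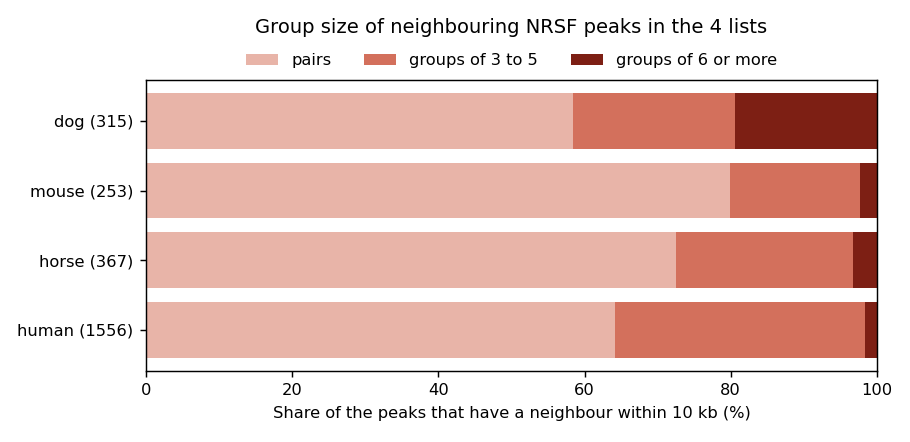
Peaks with a neighbour within 10 kb in each list (number in brackets), divided by the size of their group (x axis, % of these peaks). Groups of 6 or more, a limit set after the data were seen, hold 19.4% in dog and between 1.61% and 3.27% in the mouse, horse and human lists.

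The median spacing within groups was 2275 bp in dog, 3065 bp in mouse, 3210 bp in horse and 830 bp in human. Spacings of at most 1 kb made up 27.2% in dog, 29.2% in mouse, 23.3% in horse and 59.3% in human. Dog pairs alone had a median of 3162.5 bp, close to the 3280 bp of horse pairs, and with the long runs left out the median over all dog groups was also 3162.5 bp.

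The order of the lists depended on the reach. At 1 kb the share with a neighbour was 4.27% in dog, 3.18% in mouse and 4.21% in horse. At 100 kb it was 37.7% in dog, 39.0% in mouse and 44.9% in horse, so the dog list stood above mouse at short reach and below both at long reach. The exact intervals of dog and mouse overlapped at 1, 50 and 100 kb and did not at 2, 5, 10 and 20 kb. These intervals treat peaks as independent, so their overlap is no test. With its long runs left out, an alternative chosen after seeing the data, the dog interval at 10 kb was 10.2 to 12.9%. It overlapped the 9.51 to 12.1% of the mouse list, from which its group of 6 was not left out. Human stood above all 3 at every reach, with 18.8% at 1 kb and 56.9% at 100 kb.

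**Figure D5:**
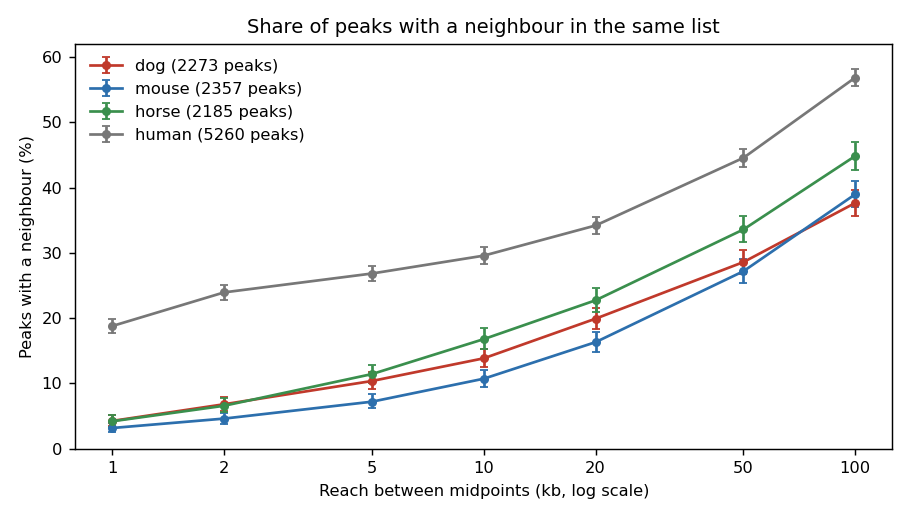
Share of peaks (y axis, %) with another peak of the same list within a given distance between midpoints (x axis, kb, log scale), with exact 95% intervals for counting error. The dog line runs from 4.27% at 1 kb to 37.7% at 100 kb and crosses the mouse line between 50 and 100 kb.

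The chromosome with the most grouped peaks was picked in each list by that count. The leading chromosome held 13.7% of the grouped peaks in dog (chromosome 26), 27.7% in mouse (chromosome 4), 13.1% in horse (chromosome 1) and 10.5% in human (chromosome 1). Those chromosomes held 4.53% of all peaks in dog, 9.33% in mouse, 8.47% in horse and 9.73% in human. In human the share of grouped peaks was thus close to the share of all peaks.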

How the data were processed

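The authors deposited 4 peak lists of positions (chromosome, start, end) with no score or signal; per the labels, the dog list belongs to both immunoprecipitated samples. The submitters' processing notes name Bowtie 0.12.8, MACS 1.4.2 and CanFam3.1, with no role. No source used here gives the peak threshold, the use of the input or the handling of replicates. Peaks were sorted and chained wherever consecutive midpoints lay at most 10 kb apart. Long runs (6 or more peaks) and the spacing search were defined after the data were seen, and all members and groupings were chosen with earlier results of these data known. Every group of 3 or more was named, with the 5 closest and 5 widest pairs and the 3 spacings just outside the reach. Shares carry exact 95% intervals. The grouping was tested on simulated data. Dog sequence and genes, and the planned search for the binding element, were not analysed here. Python 3.11.15, numpy 2.4.6, scipy 1.17.1 and matplotlib 3.10.9 were used.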

Additional observations from a re-analysis of the deposited data

How the results depend on the processing

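The reach set most values, by its own construction. At 2, 5, 20 and 50 kb the share with a neighbour was 6.82, 10.4, 19.9 and 28.6%, and the median spacing 900, 1465, 4742.5 and 10800 bp. At 2 kb there were 155 grouped peaks in 66 groups, of which 54 were pairs and 12 had 3 or more (47 peaks), and the largest had 7. At 5 kb 18 groups had 3 or more, and at 20 kb there were 139 pairs. At 50 kb there were 650 grouped peaks in 251 groups, with 189 pairs and 62 groups of 3 or more (272 peaks). Without bins of 1 Mb holding 10 or more peaks, the share was 10.6%, 18 groups had 3 or more (57 peaks) and the largest had 4. Without the groups of 6 or more, an alternative chosen after seeing the data, the share was 11.5%, 70 peaks were in groups of 3 or more and the largest group had 4. With groups kept no wider than 10 kb in all, the largest had 8. Of 83 alternative values, 38 stayed within a margin of 1.5 times for counts and spacings or within the interval for shares. No paired analysis was possible because a single list stands for both samples of a species. For the same reason no replicate could be left out. The search for the binding element was not run, and the lists give no depth.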
